A study of Homo sapiens with 12 samples.

Results

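MHCC97H, a human hepatocellular carcinoma (HCC) line, was compared with Hep3B and Huh7, the other HCC lines of the series, over all genes of the deposited table. The comparison used the 4 MHCC97H libraries against the 4 Hep3B and the 4 Huh7 libraries, 12 of 12 in the series, matched by treatment. The question was which genes set MHCC97H apart and whether they did so under every treatment. RNA was sequenced from cells that were left untreated, given AZD8055 (100 nM), given compound #57, or given AZD8055 (100 nM) with compound #57 (5 µM). AZD8055 inhibits the mTOR kinase and compound #57 inhibits the phosphatase SHP2. The dose of compound #57 alone is not given in the sources used here. All 3 lines are labelled as wild type, and each stands for 1 established line, not for a class of tumours. MHCC97H was exposed for 24 h, and Hep3B and Huh7 for 48 h, so the line and the exposure time cannot be told apart in any difference below.

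There was 1 library for each line and treatment. The 4 libraries of a line are therefore different treatments, not replicate cultures, and the p-values measure how steady a difference was over the 4 treatments. Libraries held between 10667343 and 15968317 reads, and values are log2 levels, that is log2 of the reads per 10000000 plus 1. Where 4 values are given, they stand for untreated, AZD8055, compound #57 and combination, in that order. Of 11548 genes, the table listed 50 at 0 in all 4 MHCC97H libraries, 3 in all 4 of Hep3B and 10 in all 4 of Huh7. None was at 0 in all 8 libraries of the other lines, because the table only holds genes with a mean log2 level of at least 4.65. A gene absent from both other lines would have needed a level of 13.94 in MHCC97H to be kept, against 6.97 in both other lines for a gene absent from MHCC97H, so genes found only in MHCC97H are mostly not analysed here.

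Hepatocytes make most proteins of the blood plasma, carry lipid in lipoproteins and clear nitrogen and bile acids. This programme is held by a network of transcription factors that act on each other, among them HNF4A, FOXA2 and CEBPA. HCC lines keep it to very different degrees, and many switch on fetal genes such as AFP and GPC3 instead.

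Albumin, a defining marker of the labelled liver origin, was high in Hep3B and Huh7 and far lower in MHCC97H. ALB (albumin, the main plasma protein, chr4:73397114-73421482) had log2 levels of 8.25, 7.16, 9.52 and 8.01 in MHCC97H. In Hep3B they were 17.69, 16.87, 18.62 and 17.47, and in Huh7 15.31, 14.54, 16.22 and 16.06. The groups did not overlap, and over the 4 pooled libraries MHCC97H had 1749 ALB reads against 1223548 and 277128. Of 16 immune cell markers the table held 1 (LYZ), of 14 endothelial markers 2, and of 15 stellate cell and fibroblast markers 4, with PTPRC, CD14, CDH5, VWF, ACTA2 and COL3A1 among those it did not hold. Of the markers it held, PECAM1 and LUM were called higher in MHCC97H and LYZ, EGFL7, COL1A1, COL1A2 and PDGFRB lower.

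MHCC97H stood further from Hep3B and Huh7 than these stood from each other. The difference between MHCC97H and the other lines took 67.6% of the variation over the 12 libraries and all genes, the difference between Hep3B and Huh7 20.04% and treatment 7.77%. The median absolute difference over all genes was 0.65 against Hep3B and 0.71 against Huh7 on the log2 scale, and 0.49 between Hep3B and Huh7. With limma and Benjamini-Hochberg adjustment, 7831 genes passed an adjusted p of 0.05 between MHCC97H and Hep3B, 8110 between MHCC97H and Huh7 and 6366 between Hep3B and Huh7. A gene was called when it passed against both lines in the same direction, with at least a 2-fold difference from each. By this rule 1081 genes (9.36% of 11548) were called higher in MHCC97H and 1537 (13.3%) lower, so that 58.7% of the 2618 called genes were lower. All 4 MHCC97H libraries lay above all 8 others for 1855 genes (16.1%) and below all 8 for 2299 (19.9%). A further 2710 genes passed with a 2-fold difference from at least 1 of the lines without meeting the rule.

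**Figure D1:**
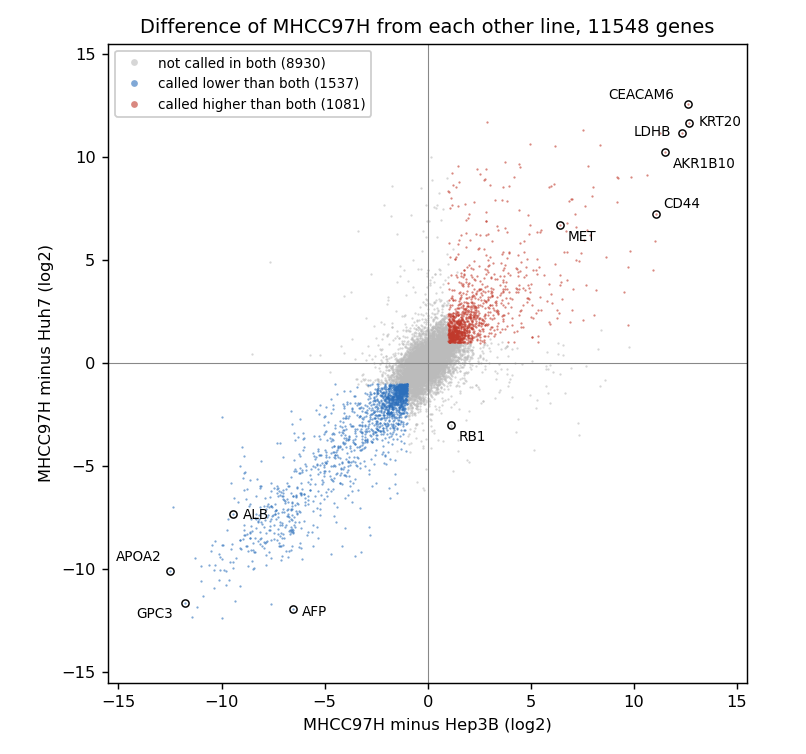
Each point is 1 of 11548 genes, placed by the mean log2 difference of MHCC97H from Hep3B (horizontal) and from Huh7 (vertical) over the 4 matched treatments. The 1081 genes called higher than both lines are red and the 1537 called lower are blue, and 11 genes named in the text are circled, of which RB1 lies between the other lines.

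The calls rest on the mean over these same treatments, so the counts over single pairs describe the called genes and are no further test. Of the 1081 higher genes, 1070 kept their sign in all 8 matched pairs (2 lines by 4 treatments) and 633 stayed past 2-fold in each of them. Of the 1537 lower genes, 1512 kept their sign and 997 stayed past 2-fold. Counted within one treatment at a time over the whole table, between 1107 and 1183 genes were past 2-fold higher than both lines and between 1570 and 1643 past 2-fold lower. The lower side reached deeper: 317 lower genes were past 16-fold in all 8 pairs against 47 higher genes. A mean level under 2 on the low side was seen for 272 of the lower genes in MHCC97H and, in both other lines, for 3 of the higher genes, an imbalance that the filter of the table favours.

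The 12 most lowered genes held several secreted liver proteins and fetal genes. GPC3 (glypican-3, a fetal surface proteoglycan used as an HCC marker, chrX:133535745-133987100) had levels of 1.72, 2.38, 2.65 and 1.78 in MHCC97H. Hep3B had 13.44, 13.56, 14.38 and 14.17 and Huh7 had 13.38, 13.70, 13.88 and 14.13, so the smallest of the 8 matched differences was 11.18. Over the pooled libraries this was 18 reads against 82535 and 74227, 4600-fold lower than Hep3B (95% interval 2911 to 7763, counting error only) and 3957-fold lower than Huh7. The limma differences were -11.75 ± 0.19 (SE) and -11.64 ± 0.19, with adjusted p-values of 1.74e-10 and 1.27e-10. In a bulk library, fewer cells with a transcript and less of it per cell cannot be told apart.

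SERPINA1 (alpha-1 antitrypsin, a plasma protease inhibitor) had 4.16, 3.53, 3.63 and 3.62 in MHCC97H, against 14.27 to 15.58 in Hep3B and 14.42 to 15.42 in Huh7. A2M (alpha-2-macroglobulin, another protease inhibitor of plasma) lay at 2.03 to 2.55 against 12.65 to 14.18 and 14.20 to 15.07. APOA2, a protein of high density lipoprotein, lay at 1.72 to 3.003 against 13.86 to 15.22 and 11.75 to 12.62. The smallest matched differences of these genes were 10.21, 10.10 and 9.39 on the log2 scale. The 12 genes were picked by this measure, so their lack of overlap with the other lines follows from the choice. IGF2, a fetal growth factor, had 4.03, 4.83, 4.40 and 3.80 in MHCC97H and 14.90 to 15.51 and 14.49 to 15.13 in the others. PROM1 and CD24, surface markers of progenitor-like liver cancer cells, were also among the 12 most lowered genes, with PROM1 at 0 to 0.91 against 11.37 to 12.06 and 11.18 to 13.11. SERPINA5, FRAS1, ELOVL2 (an elongase of polyunsaturated fatty acids) and DLC1 (a GTPase activating protein) were in this group as well, with smallest matched differences of 9.34, 9.34, 9.16 and 9.08.

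The 12 most raised genes were led by CEACAM6, an adhesion molecule of epithelial surfaces (chr19:41750977-41772211). Its levels were 13.91, 13.68, 13.99 and 14.31 in MHCC97H, 1.52, 1.79, 1.19 and 0.86 in Hep3B and 1.17, 2.11, 0.80 and 1.44 in Huh7. The pooled reads were 82304, 8 and 9, 10254-fold higher than Hep3B (interval 5204 to 23752). No library of the other lines came near the MHCC97H range, which follows from how the 12 genes were picked. CEACAM6 has close relatives with which reads could be shared. LDHB, the subunit of lactate dehydrogenase that is typical of heart, had 13.66, 13.01, 13.47 and 12.87 against 0 to 1.52 and 1.53 to 2.79, whereas LDHA, the other main subunit, differed by 1.10 and 0.91 and was not called. KRT20, a keratin of intestinal and urothelial surfaces, had 12.78, 13.21, 12.67 and 12.87 against 0 to 0.71 and 0 to 2.62. AGR2 (a disulfide isomerase of mucus-secreting cells), LGALS4 (galectin-4), S100A4, PLP2 and CYP1B1 (a cytochrome P450 induced through the aryl hydrocarbon receptor) were in the same group, with smallest matched differences of 7.82, 6.97, 7.18, 8.27 and 7.08. AKR1B10, ALDH3A1 and AKR1C3, which reduce or oxidise reactive carbonyls, were there as well, and so was the transcript AC079466.1.

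**Figure D2:**
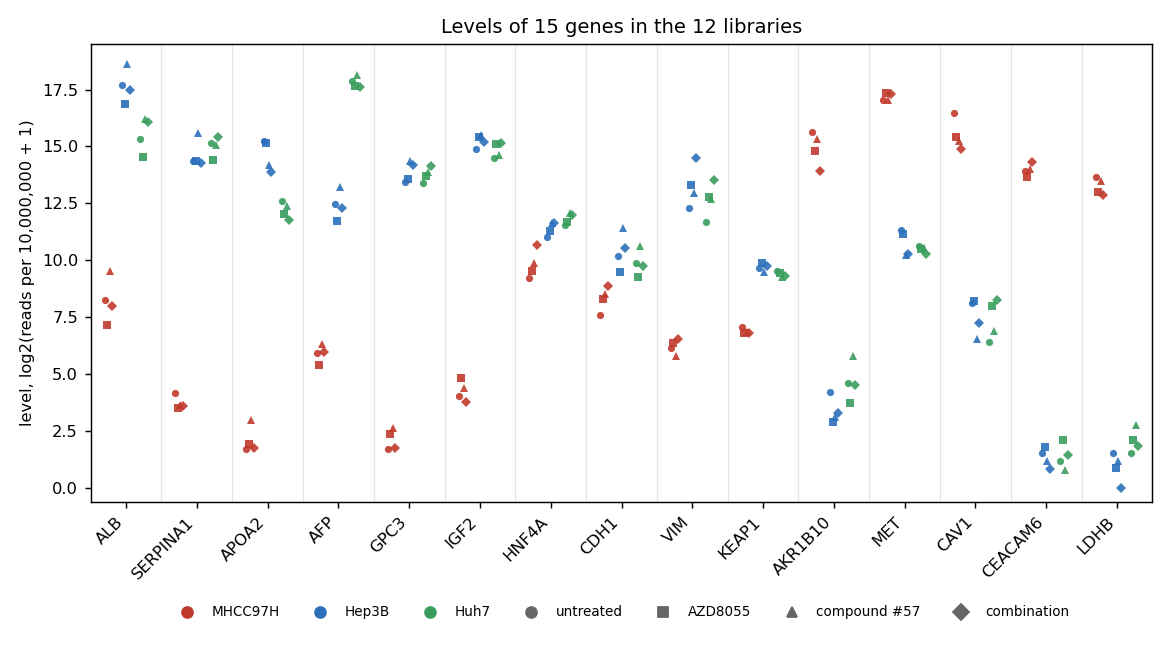
Log2 levels (vertical axis) of 15 named genes in the 12 libraries, with colour for the line and symbol for the treatment. ALB, SERPINA1, APOA2, AFP, GPC3, IGF2 and VIM lie far lower in MHCC97H and AKR1B10, MET, CAV1, CEACAM6 and LDHB far higher, while HNF4A, CDH1 and KEAP1 are lower by less.

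Among regulators of the liver programme, FOXA2 lay within 2-fold of the other lines on average while others were far lower in MHCC97H. FOXA2, a pioneer factor that opens liver enhancers, differed by -0.51 ± 0.16 and -0.90 ± 0.16 and was not called at the 2-fold limit. HNF4A, the nuclear receptor on which most hepatocyte genes depend, was called lower, with 9.22, 9.55, 9.90 and 10.69 against 11.02 to 11.64 and 11.56 to 12.08. Its difference was -1.56 ± 0.16 from Hep3B (adjusted p = 1.41e-05) and -1.995 ± 0.16 from Huh7 (adjusted p = 1.95e-06). NR5A2, which controls bile acid genes, lay at 0.82 to 3.52 against 9.19 to 10.95 and 9.81 to 11.05, and ONECUT1 at 2.84 to 4.56 against 7.92 to 9.45 and 7.48 to 9.54. In all, 12 of 25 liver transcription factors in the table were lower, 2 higher (ATF5 and CEBPB, both basic leucine zipper factors) and 11 neither, beside 13.3% lower and 9.36% higher among all genes. The list's median difference from the mean of both lines was -1.04, against -0.08 over all genes, and it lay between -1.14 and -1.07 in the 4 treatments. This and the other lists were written with earlier results of these data known, so counts over them are no test.

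Secreted products of hepatocytes were low in MHCC97H. Of 50 listed plasma protein genes 15 were not in the table, and a gene near 0 in MHCC97H passed its filter only where the other lines were high, so the counts cover the genes it held. Of these 35, 30 were lower, none was higher and 5 were not called (CFI, CP, F5 and ITIH2 among them), beside 13.3% lower and 9.36% higher among all genes. The median difference from the mean of both lines was -7.37, against -0.08 over all genes. Taken against each line, the median difference was -7.003 from Hep3B and -7.57 from Huh7. Together these genes took 0.0882% to 0.182% of the reads in MHCC97H, against 2.71% to 7.19% in Hep3B and 2.18% to 3.64% in Huh7. VTN (vitronectin) lay at 2.03 to 3.71 against 11.64 to 13.80 and 12.73 to 14.31, and AHSG (fetuin-A) at 3.46 to 4.46 against 14.16 to 14.83 and 12.59 to 13.53. The fibrinogen chain FGB was reduced less, with 6.80 to 10.26 against 10.82 to 14.55 and 13.78 to 15.49. Of 14 genes of apolipoproteins and lipoprotein assembly in the table (6 listed genes were not), 12 were lower, none was higher and APOH and SCARB1 were not called. APOA1, the main protein of high density lipoprotein, had 2.27, 1.93, 3.003 and 3.18 in MHCC97H, 11.22, 10.48, 13.98 and 12.52 in Hep3B and 12.27, 11.33, 13.77 and 12.73 in Huh7. FABP1, the fatty acid carrier of liver and gut, was at 0 in all 4 MHCC97H libraries and was at least 1402-fold lower than Hep3B and at least 3951-fold lower than Huh7, with 3 reads over the 4 libraries as the floor. APOB, the structural protein of very low density lipoprotein, lay at 7.39 to 8.46 against 14.43 to 16.33 and 13.89 to 15.89.

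Genes that the naming rule did not pick, among them LDHA, KRT8, KRT18, KRT19, NFE2L2, FGB, APOB, H19, TXNRD1, GCLM, GPX2, MTAP and FREM2, were chosen after their values were seen.

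Enzymes of hepatocyte metabolism were mostly not in the table (29 of 45). Of the 16 it held, 8 were lower (50%), 2 higher (12.5%) and 6 neither, beside 13.3% lower and 9.36% higher among all genes. CPS1, the first enzyme of the urea cycle, lay at 0 to 2.33 in MHCC97H against 5.74 to 9.23 and 6.68 to 9.64, and its difference varied by 5.30 over the treatments. The exceptions were UGT2B7, a glucuronosyltransferase (7.83 to 8.32 against 4.42 to 5.30 and 3.80 to 5.45), and BAAT, which joins bile acids to amino acids. BAAT overlapped with both lines (5.33 to 8.16 against 2.92 to 6.79 and 3.46 to 5.995). Against the mean of both lines, BAAT was not past a limma adjusted p of 0.05 when the treatment term was left out (0.0846). Reads of UGT2B7 could be shared with its close relatives. Of 17 listed liver transporters 10 were not in the table, and of the 7 it held through the same filter 6 were lower (13.3% among all genes), among them the asialoglycoprotein receptor subunit ASGR2 (0.77 to 2.43 against 10.62 to 11.71 and 11.06 to 11.56) and the glucose transporter SLC2A2 (0 to 0.77 against 9.54 to 10.32 and 5.98 to 8.89). ABCC2, which exports conjugated bilirubin and drugs, went the other way, with 12.70 to 13.11 against 8.88 to 10.33 and 8.75 to 10.54.

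Most fetal genes that Hep3B and Huh7 express were lower in MHCC97H. Of 15 oncofetal genes in the table (1 listed gene was not), 11 were lower (13.3% among all genes), none was higher and 4 were not called (H19, IGF2BP3, MDK and TSPAN8). Members near 0 in MHCC97H passed the filter only where the other lines were high, and the list was written with earlier results known. AFP, the fetal counterpart of albumin, had 5.95, 5.41, 6.31 and 5.96 in MHCC97H, 12.48, 11.73, 13.23 and 12.31 in Hep3B and 17.89, 17.65, 18.13 and 17.61 in Huh7. Its difference was -6.53 ± 0.15 from Hep3B and -11.91 ± 0.15 from Huh7 (adjusted p = 5.63e-10 and 4.61e-11). The Huh7 levels were the highest of all and the MHCC97H levels the lowest. DLK1, a marker of hepatoblasts, had 1 read over the 4 MHCC97H libraries against 9589 and 5852, and LIN28B, which blocks maturation of let-7 microRNAs, had 5 against 6671 and 31789. H19, the noncoding RNA next to IGF2, did not share the pattern of IGF2, with 7.84 to 9.37 in MHCC97H, 15.98 to 16.55 in Hep3B and 3.19 to 3.97 in Huh7.

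Markers of biliary and progenitor cells split into opposite groups. CD44, a hyaluronan receptor, had 12.57, 12.99, 12.51 and 13.28 in MHCC97H against 0.86 to 2.55 in Hep3B and 5.03 to 6.52 in Huh7. SPP1 (osteopontin) lay at 11.13 to 12.62 against 2.90 to 5.23 and 5.48 to 6.02, CLDN4 at 10.39 to 10.98 against 3.82 to 4.18 and 3.08 to 5.94, and MUC1 was higher as well. The adhesion molecule EPCAM went the other way, with 2.17 to 3.34 against 11.65 to 12.36 and 8.54 to 10.07, as did SOX9, PROM1, CD24, ANXA3 and KRT23. Of 14 members 4 were thus higher (28.6%) and 6 lower (42.9%), beside 9.36% and 13.3% among all genes. KRT19, the usual bile duct keratin, was not called (10.75 to 11.58 against 10.68 to 12.64 and 10.27 to 11.39).

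Neither an epithelial nor a mesenchymal list moved as a block. Among 23 genes of epithelial junctions and keratins, 2 were higher (8.70%), 4 lower (17.4%) and 17 neither, near the 9.36% and 13.3% among all genes. Their median difference from the mean of both lines, -0.02, changed sign with the scaling (0.02 with each library centred on its median). CDH1 (E-cadherin) had 7.62, 8.28, 8.52 and 8.87 in MHCC97H, 10.17, 9.47, 11.42 and 10.53 in Hep3B and 9.90, 9.26, 10.65 and 9.75 in Huh7 and was called lower, with differences of -2.08 ± 0.27 and -1.57 ± 0.27. CLDN1, a claudin of tight junctions, lay at 6.89 to 8.34 against 12.29 to 13.83 and 12.72 to 13.99. KRT8 and KRT18, the keratin pair of simple epithelia, were at 15.12 to 15.38 and 13.75 to 14.07 in MHCC97H and were not called. CDH2 (N-cadherin) was not called either, with differences of -0.13 ± 0.35 and -0.98 ± 0.35. Its difference from the mean of both lines, -0.56, was -0.92 without the untreated MHCC97H library (limma adjusted p = 0.0145).

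VIM (vimentin), the intermediate filament of mesenchymal cells, was among the genes that were lower. Its levels were 6.13, 6.36, 5.81 and 6.57 in MHCC97H, 12.28, 13.32, 12.96 and 14.51 in Hep3B and 11.66, 12.80, 12.69 and 13.53 in Huh7, a difference of -7.05 ± 0.24 and -6.45 ± 0.24 (adjusted p = 5.82e-09 and 9.31e-09). Of 30 mesenchymal genes 10 were higher (33.3%), 7 lower (23.3%) and 13 neither, beside 9.36% and 13.3% among all genes. The higher members included S100A4 (a calcium-binding protein of motile cells), which had 13.70, 13.58, 13.65 and 13.15 against 4.91 to 6.52 and 2.62 to 5.66, and ANXA1 (annexin A1). BGN (biglycan), FSTL1 and MYL9 (a myosin light chain) were lower together with VIM. Among 24 matrix genes 6 were higher (25%) and 11 lower (45.8%). COL6A1 and COL6A2, chains of collagen VI, and LAMA3 and LAMB3, laminin chains of epithelial basement membranes, were higher, with LAMB3 at 9.42 to 11.11 against 5.56 to 6.38 and 0 to 0.90. ITGA3 and ITGB4, subunits of laminin-binding integrins, were higher too, with ITGB4 at 9.64 to 12.92 against 7.21 to 9.24 and 3.95 to 4.55. Of 16 genes in the list of integrins, 3 were higher and 2 lower (18.8% and 12.5%), beside 9.36% and 13.3% among all genes. This list also holds ILK, TLN1, VCL and ITGB1BP1, which are not integrin subunits, and its lower genes were ITGA1 and ILK. NID2, LAMB2 and the collagen I chains COL1A1 and COL1A2 were lower.

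Among receptor tyrosine kinases, MET had the largest share of MHCC97H reads of any gene in 3 of 4 libraries. MET is the receptor of hepatocyte growth factor, and its levels were 17.06, 17.36, 17.02 and 17.30 in MHCC97H, 11.32, 11.14, 10.23 and 10.28 in Hep3B and 10.63, 10.50, 10.52 and 10.27 in Huh7. It took 1.33% to 1.68% of all reads in MHCC97H and 0.0120% to 0.0256% in the other lines. The pooled reads were 86.1-fold higher than in Hep3B and 104-fold higher than in Huh7, with differences of 6.44 ± 0.20 and 6.70 ± 0.20 (adjusted p = 3.25e-09 and 2.07e-09). AXL, the receptor of GAS6, was also higher, with 9.18, 9.87, 6.79 and 8.50 against 2.73, 5.07, 1.19 and 4.03 in Hep3B and 0.70, 5.60, 0 and 2.62 in Huh7, and its difference ranged by 2.93 over the treatments. ROR1 was the third higher receptor.

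The table held 20 receptor kinases, of which 11 were lower and 3 higher, beside 13.3% and 9.36% among all genes, and 22 of the 42 listed were not in the table. The filter of the table favours such a split, since a gene near 0 in MHCC97H was kept only where the other lines were high. The FGF receptors were all among the lower ones. FGFR1 lay at 0 to 1.78 against 7.71 to 8.86 and 8.88 to 10.01. FGFR2 was at 0 in all 4 libraries against 8.45 to 9.17 and 4.82 to 6.01. FGFR3 lay at 7.46 to 8.22 against 11.24 to 11.79 and 11.26 to 12.04. FGFR4, the receptor through which FGF19 signals in hepatocytes, had 8.86, 8.28, 9.26 and 8.71 against 11.47 to 12.09 and 11.68 to 12.50. FGF19 itself had 1 read over the 4 MHCC97H libraries and 528 and 1607 in the others. Thus FGF19 and FGFR4 were both lower than in the other lines. PDGFRB and ERBB2 were lower as well, and EGFR was not called (-0.40 ± 0.30 and -0.94 ± 0.30). ERBB3 was called lower but overlapped: MHCC97H had 8.69, 10.97, 9.88 and 11.57, and the combination library lay within the 11.14 to 11.64 of Hep3B and the 11.55 to 11.83 of Huh7. Among 17 ligands, EFNB1, FGF2, NRG1 and EREG were higher in MHCC97H and 4 were lower, with EFNB1 (ephrin-B1) at 9.39 to 10.24 against 5.79 to 6.44 in Hep3B and 0 in all 4 Huh7 libraries.

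The nearest neighbours of MET in the table were called higher on one side of it and not called on the other. MET lies at chr7:116672196-116798377 (hg38, plus strand). CAV1 and CAV2 (caveolins, which shape caveolae of the plasma membrane) start 0.147 and 0.385 Mb before it, TES (a focal adhesion protein) 0.462 Mb and MDFIC (an inhibitor of MyoD family factors) 1.75 Mb before it, and all 4 were called higher. CAV1 had 16.45, 15.43, 15.23 and 14.90 in MHCC97H against 6.53 to 8.23 and 6.42 to 8.27, and CAV2 15.87, 14.95, 15.40 and 15.02 against 7.62 to 8.78 and 7.10 to 8.69. TES differed by 2.62 and 2.16, and MDFIC by 4.95 and 3.46. On the other side, CAPZA2 starts 0.139 Mb after the start of MET and differed by 1.03 and 0.70, ST7 by 0.20 and -0.27 and LSM8 by 0.35 and 0.33, and none of these was called. CAPZA2 (limma adjusted p = 6.95e-06 against Hep3B and 9.88e-05 against Huh7) and LSM8 (0.0413 and 0.0470) passed the limit of adjusted p against both lines. CAPZA2 fell short of 2-fold against Huh7 and LSM8 against both lines. FOXP2, 2.59 Mb before MET, was lower. These neighbours were chosen by position, after the level of MET was seen, and DNA was not measured.

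**Figure D3:**
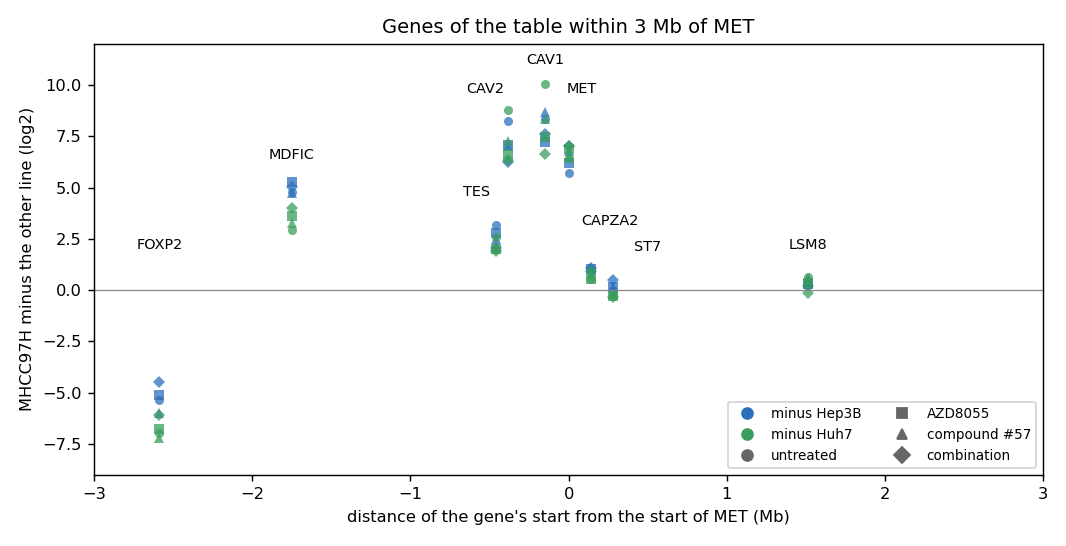
Difference of MHCC97H from Hep3B (blue) and Huh7 (green) in log2 for the 9 genes of the table whose start lies within 3 Mb of the start of MET, plotted by distance in Mb, with 1 symbol per treatment. CAV2, CAV1 and MET lie highest, MDFIC and TES follow, CAPZA2 lies slightly above 0 (1.03 and 0.70), ST7 and LSM8 lie closer to it, and FOXP2 lies far below 0.

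NRF2 targets were higher in MHCC97H almost without exception. NRF2 is a transcription factor that KEAP1 marks for degradation and that turns on genes of glutathione, NADPH and carbonyl metabolism. Of 26 of its targets in the table, 24 were higher, none was lower and 2 (ME1 and PIR) were not called, beside 9.36% higher among all genes. The list was written with earlier results of these data known, so its counts describe its members and are no test. All 4 MHCC97H libraries lay above all 8 others for 25 of the 26, beside 16.1% of all genes. The median difference was 3.29 from Hep3B and 3.17 from Huh7, and against the mean of both it lay between 3.13 and 3.41 in the 4 treatments. The targets together took 2.02% to 2.44% of the reads in MHCC97H, 0.162% to 0.238% in Hep3B and 0.182% to 0.289% in Huh7.

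The enzymes of carbonyl metabolism supplied the genes of the list with the largest smallest differences. AKR1B10 had 15.63, 14.80, 15.33 and 13.93 in MHCC97H against 2.91 to 4.23 and 3.75 to 5.81, ALDH3A1 lay at 11.80 to 12.39 against 1.40 to 2.74 and 2.58 to 3.40, and AKR1C3 at 12.23 to 12.66 against 2.55 to 3.91 and 2.81 to 4.16. AKR1C1, AKR1C2 and AKR1C3 are close copies, so reads may be split among them. TXNRD1, thioredoxin reductase, differed by 4.28 and 3.45, and NQO1, a quinone reductase, by 3.02 and 2.85. In glutathione synthesis, the cystine transporter SLC7A11 lay at 12.72 to 12.89 against 7.59 to 9.13 and 7.58 to 10.29, and GCLM differed by 4.43 and 2.36. The list carries ABCC2 and SLC7A11, which stand in other lists above and below as well.

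KEAP1 itself was lower, with 7.09, 6.82, 6.87 and 6.79 in MHCC97H, 9.68, 9.87, 9.50 and 9.75 in Hep3B and 9.52, 9.44, 9.25 and 9.31 in Huh7. The difference was -2.81 ± 0.11 and -2.49 ± 0.11 (adjusted p = 1.07e-08 and 2.27e-08), and it ranged by 0.33 over the treatments. The RNA of NRF2 (NFE2L2) was not higher, with 10.48 to 10.76 against 10.92 to 11.47 and 12.20 to 12.44. Whether the level of KEAP1 has a part in that of the targets was not tested.

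Letters that match the element NRF2 is known to bind stood in the start regions of 7 of the 18 targets with a region in the RefSeq set, and not in 11. These regions were scanned in full, beyond the 250 bases before the start. Within those 250 bases GCLM, TXNRD1, PGD, ME1 (not called), GPX2 and CBR1 held a match. NQO1, GCLC and OSGIN1 were among those without one there. The 250 bases before the start are given for TXNRD1 (chr12:104215529-104215778, strand plus) and GPX2, a glutathione peroxidase (chr14:64942746-64942995, strand minus), from RefSeq on GRCh38.p14, with matches to TGACNNNGC on either strand in capitals. The match shown begins 99 bases before the start in TXNRD1 and 122 in GPX2.
TXNRD1: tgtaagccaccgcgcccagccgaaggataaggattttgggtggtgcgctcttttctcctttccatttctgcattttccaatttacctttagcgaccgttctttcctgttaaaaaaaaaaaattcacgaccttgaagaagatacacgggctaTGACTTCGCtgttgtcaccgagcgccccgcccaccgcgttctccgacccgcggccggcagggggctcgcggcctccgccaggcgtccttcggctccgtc
GPX2: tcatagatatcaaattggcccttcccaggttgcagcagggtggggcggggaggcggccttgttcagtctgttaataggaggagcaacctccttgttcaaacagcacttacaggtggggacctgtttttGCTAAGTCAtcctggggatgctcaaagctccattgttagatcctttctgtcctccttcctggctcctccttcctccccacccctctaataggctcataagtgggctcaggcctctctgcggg
The pattern is loose, and 15.2% of the 9257 start regions held a match. Since 8 of the 26 targets had no region in the set, the count for the list is not set against that share, and a match is not a bound site.

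Metabolic lists were lower in part. Of 22 genes of cholesterol synthesis, 11 (50%) were lower, beside 13.3% among all genes, none was higher and 11 were not called. HMGCS1, which makes the precursor of mevalonate, had 8.96, 8.55, 10.54 and 9.93 against 12.28 to 14.04 and 13.41 to 15.01. The list's median difference was -1.88 untreated and -1.97 with AZD8055, -1.13 with compound #57 and -0.30 with the combination, the widest spread over treatments among the lists of 20 or more genes together with cell cycle genes (-1.14 to 0.13).

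Within the ATF4 targets, which supply amino acids, the RNA of 2 mitochondrial enzymes was near 0 in MHCC97H. PYCR1, which makes proline, had 2 reads over the 4 MHCC97H libraries against 7017 in Hep3B and 4784 in Huh7. MTHFD2, a folate dehydrogenase, had 1 against 5810 and 3461. PHGDH, the first enzyme of serine synthesis, had 6.48, 3.34, 7.11 and 3.88 against 9.74, 9.35, 11.12 and 9.20 in Hep3B and 11.53, 9.81, 11.74 and 10.29 in Huh7, with the low values in the AZD8055 and combination libraries. Of the related enzymes, MTHFD1L, looked up afterwards, was not called, with differences of -0.67 from Hep3B and 0.12 from Huh7. The amino acid transporters SLC7A11, SLC3A2 and SLC7A5 were higher, as was DDIT3, so that 4 of 23 members were higher and 4 lower. Each share was 17.4%, beside 9.36% higher and 13.3% lower among all genes.

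Among the 22 genes of antigen presentation and interferon response in the table, 8 were higher (36.4%) and 1 was lower (4.55%). Among all genes these shares were 9.36% and 13.3%. OAS1 had 9.79, 10.13, 9.65 and 9.50 against 1.93 to 3.64 and 2.77 to 3.50, and GBP2, OAS3, PSMB8, IFIT3, IRF1, HLA-E and TAP1 were the other higher members. The HLA genes share reads among close copies.

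The list of YAP and TEAD targets, which also holds the regulators YAP1, WWTR1, TEAD1 and TEAD4, was mixed. Of its 24 genes 4 were higher (AXL, MYOF, TGFB2 and the regulator WWTR1) and 9 lower. These shares were 16.7% and 37.5%, beside 9.36% and 13.3% among all genes. AMOTL1 lay at 2.49 to 3.31 against 8.88 to 9.84 and 8.71 to 9.80, and the classical targets CTGF, CYR61 and ANKRD1 were lower too, with ANKRD1 at 5.67, 6.81, 7.003 and 7.77 against 9.57 to 13.002 and 9.81 to 12.53. Of 11 Wnt targets, AXIN2 was higher (8.68 to 9.34 against 5.27 to 5.84 and 5.51 to 5.85) and 5 were lower, LGR5, NOTUM, DKK1, TNFRSF19 and GLUL. AXIN2 therefore lay opposite to the other called members of its list, which had 9.09% higher and 45.5% lower. Of 17 hypoxia genes 3 (17.6%) were higher (PGK1, ADM and SLC2A1), and none was lower.

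Few genes of the cell cycle and replication were called. Of 30 genes 1 was higher (CCND3), 2 were lower (AURKB and RRM2) and 27 were not called, shares below those among all genes. CDKN1A, an inhibitor of cyclin-dependent kinases, was higher, with 9.05, 9.61, 9.67 and 10.05 in MHCC97H against 4.55 to 7.14 and 5.27 to 6.21. RB1 lay between the other lines in every treatment, with 6.75 to 7.57 in MHCC97H, 5.71 to 6.23 in Hep3B and 9.94 to 10.25 in Huh7. MTAP, the neighbour of CDKN2A, differed by 0.15 and 0.10 and was not called. HOX genes and cancer testis antigens were mostly not in the table (7 of 39 and 7 of 40 were), with HOXA2 higher and HOXC10 and TEX15 lower. Of 14 tumour suppressors and genes near CDKN2A, 2 were higher (AXIN1 and CDKN1A) and KEAP1 was lower, shares of 14.3% and 7.14% that lie near those of all genes (9.36% and 13.3%).

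Called genes were not spread evenly over the chromosomes. Of the 345 genes on chromosome X, 37.7% were higher and 10.4% lower, with a median difference of 1.04 from Hep3B and 0.87 from Huh7. Of the 190 genes on chromosome 13, 1 was higher and 68 (35.8%) were lower, with medians of -0.99 and -1.18. Chromosome 8 (21.7% higher) and chromosome 12 (16.7% higher) lay above the 9.40% found over the 11161 genes placed on a chromosome, and chromosomes 4 (18.5%), 22 (18.2%) and 5 (18.1%) lay above the 13.2% lower. RB1 and FREM2 are among the genes on 13. In runs of 15 neighbouring genes, the largest median shift downward lay between SLC29A2 and SYT12 (chr11:66362521-67050863), where 11 of 15 genes were lower with medians of -1.70 and -2.34. The largest shift upward ran from RBMX to GABRE (chrX:136848004-151974680), with 9 of 15 higher and medians of 2.11 and 2.19. These runs were picked as the extremes, so their values are a description.

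**Figure D4:**
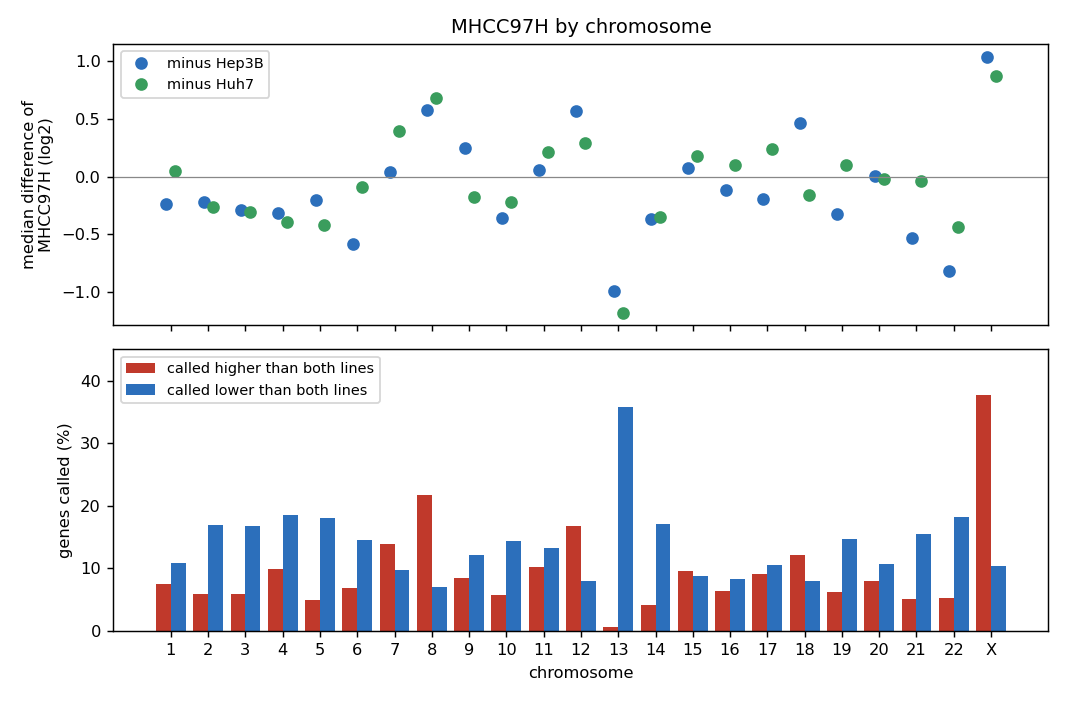
Top, the median log2 difference of MHCC97H from Hep3B (blue) and Huh7 (green) over the genes of each chromosome; bottom, the percentage of those genes called higher (red) or lower (blue) than both lines. Chromosomes 13 and X stand out in opposite directions.

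A few called genes differed in size with the treatment. The difference of TUBA1A, an alpha-tubulin, from the mean of both lines ranged by 6.42 over the treatments: MHCC97H had 3.96, 3.003, 2.84 and 3.31, Hep3B 4.43, 8.41, 9.07 and 11.37 and Huh7 6.01, 9.04, 8.78 and 10.59. MHCC97H stayed low while the levels of both other lines were lowest untreated and highest in the combination. CCL20, a chemokine, ranged by 6.30, with 3.46, 3.98, 4.40 and 6.91 in MHCC97H and 11.11, 10.10, 7.48 and 7.67 and 10.71, 9.04, 8.28 and 8.46 in the others, and here the combination library of MHCC97H was its highest. LYZ (lysozyme) and the surface proteins MDGA1, ADAM28 and SMPDL3B completed the 6 most variable, with ranges of 5.998, 5.79, 5.55 and 5.30. The opposite extreme held ZFAND5, whose difference ranged by 0.02, with 12.25, 12.43, 12.19 and 12.55 in MHCC97H, 10.13, 10.22, 10.01 and 10.45 in Hep3B and 11.002, 11.29, 10.97 and 11.26 in Huh7. PRKACA (the catalytic subunit of protein kinase A, lower), SHFM1 (higher), PEAK1 (lower), C1orf131 (lower) and PPARG (a nuclear receptor of lipid storage, higher) were as steady, with ranges of 0.045 to 0.075.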

How the data were processed

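RNA of 12 cultures was sequenced from a poly(A)-selected, stranded library each. The authors deposited 1 table of log2 values for 11548 genes, and per the labels the build was hg38; the aligner, the counting and the normalization are not given in the sources used here. Each library had been brought to a total of 10000000 reads, 1 was added and the log2 taken, and every deposited value then carries a further 0.001. Once this offset was taken off, all values came out as whole reads within 0.05 of a read, and the libraries held 10667343 to 15968317 reads. The depth sets the error of genes near 0. Pooled ratios carry 95% intervals for counting error only, with a floor of 3 reads over 4 libraries.

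Groups follow the labels. limma 3.58.1 (R 4.3.3) was fitted to all genes with line and treatment as terms, a trend in the prior variance and 6 residual degrees of freedom. A gene was called when the Benjamini-Hochberg adjusted p was under 0.05 and the difference at least 2-fold against both other lines, in 1 direction. The fit was tested on simulated data. Named were the 12 higher and 12 lower genes with the largest smallest difference over the 8 matched pairs, up to 4 called members per direction of 27 gene lists by the same measure, 18 key genes, and the 6 called genes whose difference varied most and the 6 whose difference varied least over treatments. Members and lists were chosen with earlier results of these data known. Gene positions came from GENCODE 44, and start regions from RefSeq on GRCh38.p14. Alternatives were another pseudocount, no treatment term, centring, voom, a filter on low genes, other fold limits, matched pairs without a test, and leaving out each library. Python 3.11.15 with pandas 2.3.3 and matplotlib 3.10.9 made the summaries and plots. Dates stand in place of names for 18 genes and 3 names stand on 2 lines, and these were kept as listed. Some genes that the rule names are not reported here.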

Additional observations from a re-analysis of the deposited data

Results flagged for a closer look

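In 4 of 62 genes and list medians checked, 1 MHCC97H library stood apart from the other 3 by Dixon's criterion. Chance meets it in about 1 of 20 groups of replicates. The 4 libraries are different treatments, so this rate does not strictly hold for them. SERPINA1 had a log2 level of 4.16 untreated, against 3.53 to 3.63 in the others. APOA2 had 3.003 with compound #57, against 1.72 to 1.93. SERPINA5 had 2.55 with the combination, against 0.77 to 0.91, and FGF19 had 0.85 there and 0 elsewhere, which is 1 read. All 4 genes were far lower in MHCC97H than in both other lines, and these gaps lie at low levels.

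RB1 in MHCC97H lay between the other lines in every treatment. MHCC97H minus Hep3B was 1.15 on the log2 scale, and MHCC97H minus Huh7 was -2.998. These contrasts differ by Hep3B minus Huh7, which limma put at -4.15 ± 0.15 (SE, adjusted p = 2.36e-08).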

How the results depend on the processing

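Counts of genes higher and lower in MHCC97H than in both lines were 1081 and 1537. Among the 75% of genes with the highest mean they were 679 and 837, with no fold limit 2479 and 3086, with a fold limit of 4 they were 362 and 749, and past 2-fold in all matched pairs with no test 633 and 997. These settings test fewer genes or move the limit itself. With 10 added to the linear value they were 1032 and 1429, without the treatment term 1048 and 1494, with libraries centred 1128 and 1472, and with voom 1080 and 1543. Leaving out each library gave 1062 to 1092 higher and 1518 to 1556 lower genes, and 7201 to 7815 genes called against Hep3B, 7454 to 8132 against Huh7 and 5412 to 6433 between Hep3B and Huh7. No called gene took the opposite call in any of these settings. The median of the epithelial list, -0.02, turned to 0.0221 with libraries centred and ranged from -0.246 to 0.0229 when a library was left out, so its sign is not settled; the cause was not tested. Without the treatment term, BAAT, ITGA2 and PSAT1 were no longer under a limma adjusted p of 0.05 against the mean of both lines. The values were 0.0846, 0.0505 and 0.100. EGFR, at -0.67 from the mean of both lines, ranged from -0.416 (without the MHCC97H library with compound #57) to -0.908, and CDH2, at -0.56, from -0.349 to -0.916 (without the untreated MHCC97H library). Libraries were matched by treatment in the fit, and the labels give no replicate numbers for another pairing. With 1 library per line and treatment, and 24 h against 48 h, line, time and culture cannot be told apart.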

Other observations

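CEACAM6, KRT20, LGALS4 and AGR2, 4 of the 12 most raised genes, are known from intestinal epithelium, so a list of 20 genes of that tissue was looked up after these values were seen. The table held 12 of them. In MHCC97H 5 were higher than in both other lines (KRT20, LGALS4, CEACAM6, MUC13 and AGR2), 2 were lower (VIL1 and ISX) and 5 were not called. Among all genes 9.36% were higher and 13.3% lower. The median difference of the 12 genes was 2.53 from Hep3B and 1.14 from Huh7. MUC13, a membrane mucin, lay at 9.02 to 10.72 in MHCC97H, against 5.61 to 7.16 in Hep3B and 4.44 to 7.79 in Huh7. ISX, an intestinal homeobox factor, was at 0 in all 4 MHCC97H libraries, against 6.49 to 7.05 and 7.79 to 8.41. CDX2, the main intestinal homeobox factor, was not called, with 6.07 to 7.35 against 5.42 to 8.21 and 7.53 to 9.21. CDH17, an intestinal cadherin, lay far above Hep3B but closer to Huh7, with differences of 8.42 and 1.62. The list did not move as a block, and since it was chosen after its leading genes were seen, its count supports nothing.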
